A study of Arabidopsis thaliana with 30 samples.

Results

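Plants adjust the uptake, movement and storage of iron, which they need and which is harmful in excess, through regulators that also act in leaves. Of these genes, 10 iron regulators, transport genes and ferritins are described here in leaves of Arabidopsis thaliana. They comprise the Ib bHLH transcription factor genes BHLH38, BHLH39, BHLH100 and BHLH101, and the regulator genes PYE and BTS. The others are the transporter gene OPT3, the reductase gene FRO3, and the ferritin genes FER1 and FER4. All were chosen by locus identifier with earlier results of these data known. The shares of all genes given beside their counts are therefore a description. The members are 10 of 34262 gene identifiers in the deposited count files, and all 10 passed the filter on low counts in every comparison.

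The Ib bHLH factors act together with the root factor FIT to switch on iron uptake, and their transcripts are a common marker of low iron status in leaves as well. PYE is a bHLH repressor of iron homeostasis genes that include NAS4, FRO3 and ZIF1, and BTS is an iron-binding E3 ligase that marks upstream bHLH activators for degradation. OPT3 loads iron into the phloem and is needed for shoot-to-root iron signalling. FRO3 is a ferric reductase of mitochondria. Ferritins store iron in plastids, and in Arabidopsis FER1 is the main leaf form that accumulates when iron is plentiful.

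Leaf RNA of bolting Col-0 plants was sequenced, from the wild type and from the genotypes cue1, hda6, sal1 and msh1. CUE1 exchanges phosphoenolpyruvate across the plastid envelope, HDA6 is a histone deacetylase, SAL1 a phosphatase of chloroplasts and mitochondria, and MSH1 a MutS homologue of both organelles. Day lengths were 12 h and 16 h, at 22/20 °C without heat. Each of the 10 groups has 3 libraries, 30 in all, which the series text calls full-sib replicates, so p-values measure the spread between such samples. The labels used here name no allele.

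The groups fall into 4 sets. At 12 h, wild type, cue1 and hda6 form a set, and sal1 has a wild type of its own. At 16 h, wild type, cue1 and msh1 form a set, and hda6 has a wild type of its own. The first set held 32306939 to 33747006 gene counts per library, and the other sets between 14417942 and 22334743. Reads placed in no gene made up 2.58% to 5.78% of entries in the first set and 48% to 49.6% in the others, and the cause was not tested. Comparisons of the first set with another, between wild types or of a mutant effect by day length, span this difference. Each set was grown at a single day length. Day length and set therefore cannot be told apart beyond what the pair of wild types at each day length shows. Leaf mesophyll markers were abundant in every library, with a sum over 7 genes from 5805 CPM upwards, where CPM is a count scaled by library size (total times TMM factor, over all libraries). The root hair and endodermis markers COBL9, EXPA7, LRX1 and MYB36 reached at most 0.212 CPM, CASP1 1.35 and CASP2 3.9 CPM, whereas PYK10, from the same root list, was present in every library at 4.75 to 53.2 CPM, and the 6 flower markers summed to at most 10.3 CPM. In bulk leaf RNA, fewer cells of a type and less RNA per cell cannot be told apart.

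The 10 genes lie on all nuclear chromosomes (coordinates of TAIR10.1). BHLH38 (AT3G56970) and BHLH39 (AT3G56980) are tandem neighbours on the minus strand, at chr3:21084035-21085245 and chr3:21086390-21087710, separated by 1144 bases. Exons of AT3G56960 on the opposite strand overlap 35.7% of the exonic bases of BHLH38, the largest share among the members. Its counts may therefore be less certain, depending on the strand setting of the counting, which is not known. Similar sequence within the tandem pair may add to this for BHLH38 and BHLH39 alike, and its effect was not examined. Overlap on the opposite strand also covers 7.29% of the exonic bases of BHLH101, a gene of few reads, and 0.862% of those of FRO3. BHLH100 (AT2G41240) lies at chr2:17198037-17199454 and BHLH101 (AT5G04150) at chr5:1138410-1139633. PYE (AT3G47640) lies at chr3:17567126-17569394 and BTS (AT3G18290) at chr3:6273966-6280562, both on the plus strand. OPT3 (AT4G16370) lies at chr4:9247302-9250343 and FRO3 (AT1G23020) at chr1:8149868-8153796. FER1 (AT5G01600) lies at chr5:227953-230051 and FER4 (AT2G40300) at chr2:16831109-16833294.

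Since several members moved in the same direction, their promoters were read from the RefSeq genome for the G-box, CACGTG, a motif bound by many bHLH factors and identical on both strands. Windows ran from 250 bases before to 50 bases after the annotated start. The G-box was in the windows of BHLH38, BHLH100, BTS, OPT3, FRO3 and FER4, 6 of the 10 members, and in 2107 of 27443 protein-coding genes, 7.68%. BTS held 3 copies, which began 146, 124 and 70 bases before the start. A match describes letters only, and no match in the windows of BHLH39, BHLH101, PYE and FER1 says nothing on a factor. The 250 bases before the start are shown 5′ to 3′ on the gene's strand for BTS, for the tandem pair, where only BHLH38 has the motif, and for FER1, with the G-box in capitals. They are chr3:6273716-6273965 (plus strand), chr3:21085246-21085495, chr3:21087711-21087960 and chr5:230052-230301 (minus strand).
BTS: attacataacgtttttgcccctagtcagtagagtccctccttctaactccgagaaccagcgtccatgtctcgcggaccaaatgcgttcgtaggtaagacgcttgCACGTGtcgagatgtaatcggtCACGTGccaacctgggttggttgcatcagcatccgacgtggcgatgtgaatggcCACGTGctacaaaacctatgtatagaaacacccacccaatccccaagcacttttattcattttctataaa
BHLH38: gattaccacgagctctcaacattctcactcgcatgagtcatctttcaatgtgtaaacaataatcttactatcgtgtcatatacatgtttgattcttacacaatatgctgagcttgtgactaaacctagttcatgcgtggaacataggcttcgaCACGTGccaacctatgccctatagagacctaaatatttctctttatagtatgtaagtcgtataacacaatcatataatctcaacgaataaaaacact
BHLH39: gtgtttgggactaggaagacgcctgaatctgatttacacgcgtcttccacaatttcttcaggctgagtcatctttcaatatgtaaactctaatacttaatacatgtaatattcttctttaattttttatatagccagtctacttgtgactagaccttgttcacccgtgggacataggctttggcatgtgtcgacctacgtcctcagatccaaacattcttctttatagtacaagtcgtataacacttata
FER1: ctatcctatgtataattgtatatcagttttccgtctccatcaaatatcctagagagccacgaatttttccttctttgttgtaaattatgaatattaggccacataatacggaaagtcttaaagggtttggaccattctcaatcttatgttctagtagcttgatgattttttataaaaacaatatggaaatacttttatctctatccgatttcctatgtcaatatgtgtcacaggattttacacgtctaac

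Over the 30 libraries the members differed widely in level and in range. Per kilobase of exon, the median level was highest for OPT3, at 102 CPM per kb, followed by BTS at 51.7, FER1 at 45, FRO3 at 25.8 and FER4 at 16.7 CPM per kb. PYE had 9.9 CPM per kb, and the Ib bHLH genes had 9.28 (BHLH38), 5.86 (BHLH100), 4.7 (BHLH39) and 2.89 CPM per kb (BHLH101). The span was widest in BHLH38, BHLH100 and BHLH39. BHLH101, the remaining Ib bHLH gene, spanned 14.1-fold, less than FRO3 (29.8-fold) and FER1 (15.2-fold). BHLH38 ran from 0.151 to 81.1 CPM, 537-fold, BHLH100 329-fold and BHLH39 141-fold, while PYE ran from 6.67 to 25.8 CPM, 3.87-fold, and FER4 3.24-fold. The lowest values rest on few reads, with 4 counts for BHLH38 in sal1 replicate 3 and 4 counts for BHLH100 in wild type 16 h replicate 1. When the 10 groups were put in order of their mean, most neighbours overlapped: of 9 neighbouring pairs, 2 did not overlap for BHLH100, BTS, FRO3 and FER1, 1 for BHLH38, BHLH39, PYE and OPT3, and 0 for BHLH101 and FER4.

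**Figure D1:**
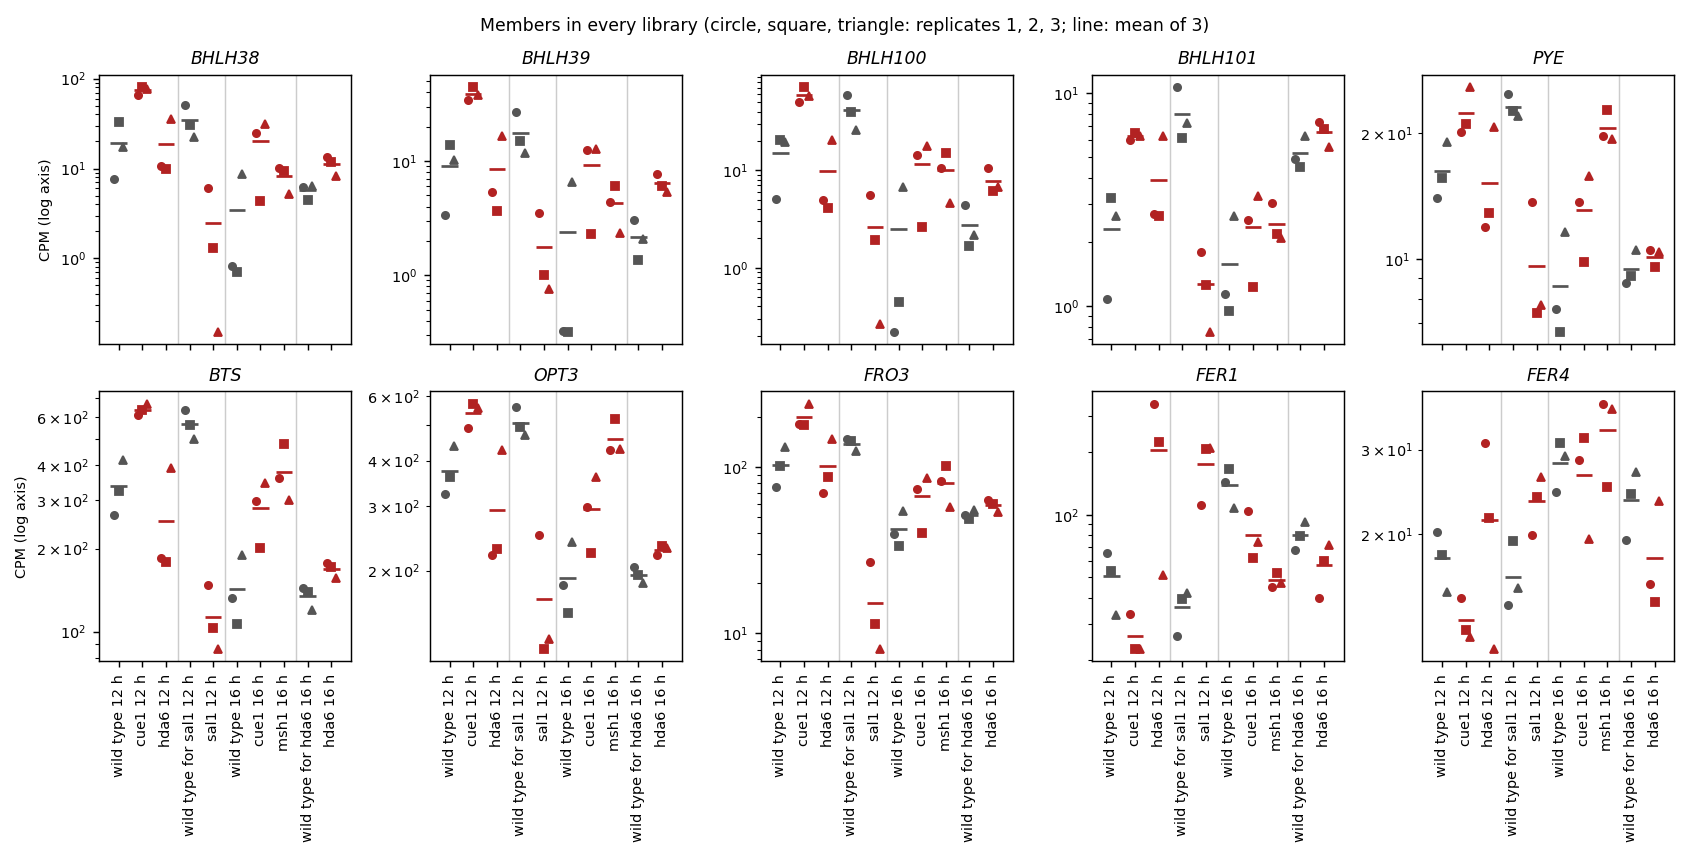
Level of each member in the 30 libraries, as CPM on a log axis that differs between panels. Circles, squares and triangles are replicates 1, 2 and 3, the lines are group means, wild types are grey and mutants red, and vertical lines part the 4 sets. BHLH38 spans 0.151 to 81.1 CPM, and FER4 11.5 to 37.4 CPM.

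In sal1 every member differed from the wild type. All 8 regulators and transport genes were lower in sal1 than in its wild type and both ferritins were higher. By edgeR's quasi-likelihood test 10 of 10 members were called, where 46.3% of the 21845 genes tested were called (25% higher and 21.3% lower, at an adjusted p under 0.05 over all genes). For no member did the sal1 values overlap those of the wild type, which held for 58.6% of all genes tested.

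Among the Ib bHLH genes, BHLH39 had 26.7, 14.9 and 11.8 CPM in the wild type and 3.51, 1.01 and 0.755 CPM in sal1, a log2 fold change of -3.31 ± 0.54 (SE, edgeR adjusted p = 0.00212). BHLH100 had 59.3, 39.5 and 25.9 CPM against 5.61, 1.93 and 0.264 CPM, a log2 fold change of -3.97 ± 0.70 (edgeR adjusted p = 0.00288). In both genes the highest sal1 library lay below the lowest wild type library, and replicate 1 was the highest of each group. BHLH38 fell by 3.77 and BHLH101 by 2.63 on the log2 scale. BHLH101, the least abundant of these genes, had 10.7, 6.15 and 7.2 CPM in the wild type and 1.79, 1.26 and 0.755 CPM in sal1.

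The ligase gene BTS had 633, 561 and 499 CPM in the wild type and 148, 103 and 86.4 CPM in sal1, a log2 fold change of -2.30 ± 0.20 with the lowest adjusted p of the members (edgeR, 0.000116). PYE fell less, from 23.1 ± 1.5 to 9.62 ± 3.56 CPM (mean ± SD, n = 3), or by 1.24 on the log2 scale. FRO3, the mitochondrial reductase gene, had 147, 143 and 125 CPM against 26.7, 11.4 and 8.04 CPM, a log2 fold change of -3.15 ± 0.39 (edgeR adjusted p = 0.000609). The highest sal1 library stayed far below the lowest wild type library. OPT3 fell by 1.58 on the log2 scale, from 508 ± 46.7 to 167 ± 71.6 CPM.

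FER1 had 26.2, 39.4 and 42.2 CPM in the wild type and 112, 207 and 209 CPM in sal1, 5-fold higher in the fit (log2 2.32 ± 0.28, edgeR adjusted p = 0.000573). FER4 moved less, from 14.2, 19.3 and 15.4 CPM to 19.9, 23.9 and 26.3 CPM (log2 0.55 ± 0.15, edgeR adjusted p = 0.0193). In sal1, replicate 1 was the lowest for both ferritins and the highest for all other members. The call of FER4 was lost without sal1 replicate 3 (edgeR adjusted p = 0.071), without wild type for sal1 replicate 1 (0.056) and without its replicate 3 (0.0659).

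Of the other iron genes in the lists, 27 of 52 tested were called in sal1, 51.9%, beside the 46.3% of all genes. Of 5 genes in the list of iron peptides and BTS-like ligases, 4 fell and 0 rose, among them AT1G47400 (log2 -1.97) and AT1G47395 (log2 -2.23). Of 6 storage genes 4 rose, led by FER2, the ferritin of seeds (log2 3.82), and VTL2, a vacuolar iron transporter-like gene (log2 1.58). Of 18 transport and chelation genes tested, 4 rose and 7 fell. NAS4, a nicotianamine synthase gene repressed by PYE in roots, fell by 2.49, and YSL2, of a family that carries metal-nicotianamine complexes, rose by 2.76 on the log2 scale.

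Of 6 upstream bHLH genes 2 rose, the activator gene bHLH104 (log2 0.60) and bHLH11 (log2 1.31). In the root uptake list 2 of 7 tested genes rose, ABCG37, a coumarin exporter gene (log2 2.38), and MYB72, a root factor gene induced by low iron (log2 1.68, with 74% of its exonic bases overlapped on the other strand). In plastid iron-sulfur assembly 1 of 10 rose and 3 fell, with ABCI8 at 0.93 and its partner in the SUF scaffold, ABCI7, at -0.58 on the log2 scale. The median log2 fold change was -1.80 for the peptide and ligase list, 1.49 for storage and 0.01 over all genes tested.

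Cell type markers also moved in sal1. The mesophyll sum was 12907 to 18796 CPM in the wild type and 5805 to 9835 CPM in sal1, and 5 of 7 markers were called lower. The root endodermis markers CASP1 and CASP2 were called higher, at means of 1.2 and 3.27 CPM in sal1. Both had at most 0.21 CPM in any library of its wild type. In sal1 EXPA7 and LRX1 were at 0, MYB36 and COBL9 reached at most 0.0755 and 0.0841 CPM, and PYK10 was not called (log2 -0.44). Of 6 flower markers 1 was called higher, PI (log2 5.30, mean 0.867 CPM), and 4 were not tested. Of 5 stem secondary wall markers 1 was called lower, IRX1 (log2 -0.58), and 3 were not called. Of 3 senescence markers 2 were called higher. Of 5 phloem markers 1 was called lower, SEOR1 (log2 -1.37), and 4 were not called. Their part in the result was not tested.

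**Figure D2:**
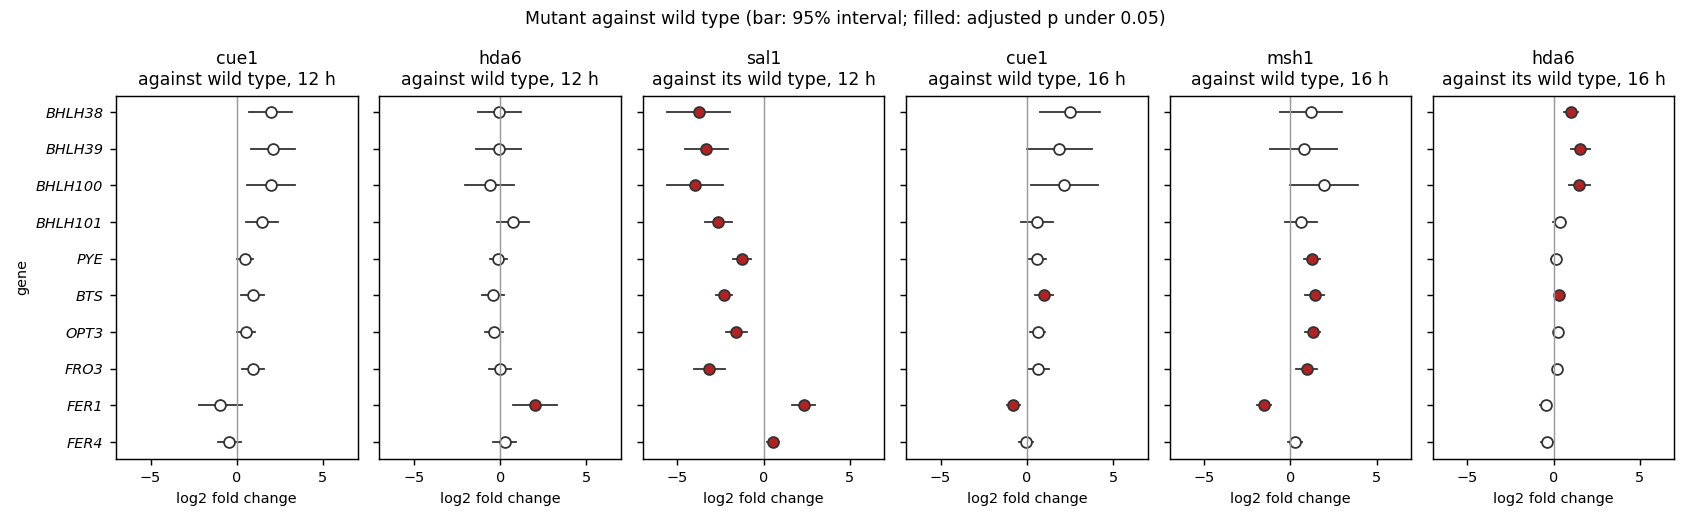
Log2 fold change of each member (x axis) in the 6 comparisons of a mutant with the wild type of its set, 3 libraries against 3. Bars are 95% intervals and filled points passed an adjusted p of 0.05 in edgeR. All 10 points are filled in sal1, none in cue1 at 12 h, and FER1 lies opposite to BTS in every panel.

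In msh1 the members that moved went in the direction opposite to sal1. PYE, BTS, OPT3 and FRO3 rose and FER1 fell, 5 of 10 members, while 33.4% of the 20785 genes tested were called (17.4% higher and 16% lower). The Ib bHLH genes and FER4 did not pass the test. The 4 genes that rose and FER1 did not overlap with the wild type, against 48.6% of all genes tested.

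PYE had 7.58, 6.67 and 11.6 CPM in wild type 16 h and 19.7, 22.7 and 19.4 CPM in msh1 (log2 1.27 ± 0.21, edgeR adjusted p = 0.000928). BTS had 132, 107 and 189.9 CPM against 361, 477 and 299 CPM (log2 1.43 ± 0.25, edgeR adjusted p = 0.0013). Replicate 3 was the highest wild type library for both genes, and it stayed below every msh1 library. OPT3 had 183, 153 and 239 CPM against 428, 519 and 431 CPM (log2 1.29 ± 0.20, edgeR adjusted p = 0.00054).

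FRO3 rose by 0.95 ± 0.28 on the log2 scale, from 39.5, 33.3 and 54.2 to 82.3, 101 and 57.2 CPM (edgeR adjusted p = 0.0227). The lowest msh1 library lay just above the highest wild type library. This call was lost without msh1 replicate 1 (edgeR adjusted p = 0.0599), msh1 replicate 2 (0.0947), wild type 16 h replicate 1 (0.0764) or replicate 2 (0.096). FER1 had 144, 167 and 108 CPM in the wild type and 45.2, 52.8 and 47.1 CPM in msh1 (log2 -1.50 ± 0.19, edgeR adjusted p = 0.000143). FER4 had 28.2 ± 3.35 CPM and 32.9 ± 6.82 CPM (mean ± SD, n = 3) and did not pass the test (log2 0.25, 95% interval -0.16 to 0.66).

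The Ib bHLH genes were split within wild type 16 h. BHLH38 had 0.818, 0.698 and 8.79 CPM, BHLH39 0.327, 0.317 and 6.58 CPM, and BHLH100 0.218, 0.444 and 6.77 CPM. Replicate 3 thus stood above the other wild type libraries in each. In msh1 the same genes had 10.1, 9.46 and 5.23 CPM, 4.42, 6.01 and 2.35 CPM, and 10.6, 15.1 and 4.59 CPM. Without wild type 16 h replicate 3, 9 of 10 members were called in msh1, with log2 fold changes of 3.46 (BHLH38), 3.73 (BHLH39), 4.97 (BHLH100) and 1.24 (BHLH101). With it, the same genes had log2 fold changes of 1.22, 0.77, 1.97 and 0.62, none past the threshold (edgeR adjusted p = 0.114 or above).

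Of the other iron genes 19 of 50 tested were called in msh1, 38%, beside 33.4% of all genes. Of 5 peptide and ligase genes 3 rose and 0 fell, among them AT1G47400 (log2 2.66) and AT1G47395 (log2 2.33). Transport and chelation genes were divided, with 5 of 18 higher and 5 lower. FRO7, a ferric reductase gene of chloroplasts, fell by 1.76, and YSL1, a gene for an iron-nicotianamine transporter of leaf veins, fell by 0.78 on the log2 scale. In storage 2 of 5 rose and 2 fell, with FER3, another plastid ferritin gene, at 0.71 and VTL1 at -1.64 on the log2 scale.

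In plastid iron-sulfur assembly 2 of 10 genes fell in msh1, CPISCA (log2 -0.43, with 35.7% of its exonic bases overlapped on the other strand) and ABCI8 (log2 -0.67). Flower markers summed to 8.69 to 10.3 CPM in msh1 and 1.74 to 3.24 CPM in its wild type, with 4 of 6 called higher. Of 5 phloem markers 0 were called. Mesophyll markers summed to 29549 to 36366 CPM in msh1 and 35549 to 44986 CPM in the wild type, with 4 of 7 called lower (LHCB1.1 at -0.99, LHCA1 -0.60, RCA -0.56 and GLDP1 -0.45 on the log2 scale), and 1 of 3 senescence markers, NYE1, was called lower (log2 -0.85). Their part in the result was not tested.

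In cue1 few members passed the test at either day length: BTS rose and FER1 fell at 16 h, and the fitted values of the other members are given without a call. At 12 h 0 of 10 members were called by edgeR, where 1.85% of 20649 genes were called, and 6 members had an unadjusted p under 0.05. DESeq2 called 3, BHLH101, BTS and FRO3. In the libraries themselves 8 members were higher in every cue1 library than in any wild type library and 1 was lower, against 21.7% of all genes tested in either direction.

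BHLH39 had 3.35, 13.8 and 10.3 CPM in wild type 12 h and 34.4, 44.8 and 37.6 CPM in cue1 (log2 2.09 ± 0.58, edgeR adjusted p = 0.108). BHLH38 had 7.66, 32.5 and 17.4 CPM against 66.1, 81.1 and 77.2 CPM (log2 1.96 ± 0.56, edgeR adjusted p = 0.12). Wild type replicate 1 was the lowest for both genes, and the cue1 libraries lay close together. The cue1 group at 12 h had the highest mean of all groups for BHLH38, BHLH39, BHLH100, BTS, OPT3 and FRO3.

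BTS had 265, 323 and 419 CPM in wild type 12 h and 607, 636 and 669 CPM in cue1 (log2 0.92 ± 0.29, edgeR adjusted p = 0.153). FRO3 had 75.3, 101 and 132 CPM against 182, 179 and 239.8 CPM (log2 0.96 ± 0.28, edgeR adjusted p = 0.13). For both genes wild type replicate 3 was the highest of its group and lay below cue1. FER4 had 20.2, 18.1 and 15.1 CPM against 14.7, 12.6 and 12.2 CPM, and FER1 65.6, 53.7 and 32.9 CPM against 33.4, 22.6 and 22.7 CPM. FER1 was the member whose groups overlapped.

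At 16 h 2 of 10 members were called in cue1, where 6.75% of 20785 genes were called (3.34% higher and 3.42% lower). BTS rose, from 132, 107 and 189.9 to 297, 200.1 and 346 CPM (log2 0.98 ± 0.25, edgeR adjusted p = 0.0385), and FER1 fell, from 144, 167 and 108 to 104, 62.2 and 74.2 CPM (log2 -0.78 ± 0.18, edgeR adjusted p = 0.0278). Neither gene overlapped with its wild type, as for 26.3% of all genes tested. The Ib bHLH genes were again split between libraries: BHLH38 had 24.9, 4.34 and 31 CPM in cue1, with replicate 2 below wild type replicate 3. Its log2 fold change of 2.49 ± 0.80 did not pass the test (edgeR adjusted p = 0.0892).

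The count at 16 h turned on single libraries. Without wild type replicate 3 edgeR called 7 members, and without cue1 replicate 2 it called 5. It called 1 without cue1 replicate 1, and 0 without cue1 replicate 3, without wild type replicate 1 or without wild type replicate 2. SAG12, a senescence marker, had 0.0454, 4.34 and 107 CPM in the cue1 libraries and 0 in wild type 16 h. The other senescence markers hardly differed, with means of 21.8 CPM in cue1 and 21.7 CPM in the wild type for NYE1. ORE1 had means of 5.43 and 5 CPM. Of 3 senescence markers 0 were called, and 2 of 7 mesophyll markers were called lower. So were 1 of 5 phloem markers and 1 of 5 stem secondary wall markers. Their part in the result was not tested. Of the other iron genes 5 of 50 tested were called at 16 h, 10%, beside 6.75% of all genes. FRO7 (log2 -1.28) and FRO6 (log2 -1.30), neighbouring ferric reductase genes of similar sequence, were among 3 of 18 transport genes that fell at 16 h, while 1 rose. AT1G74770, with 10.5% of its exonic bases overlapped on the other strand, rose (log2 0.75), 1 of 5 in its list. At 12 h 1 of 49 tested list genes was called, 2.04%, beside 1.85% of all genes: VTL1 (log2 -2.44).

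Whether the cue1 effect differed between day lengths was tested as an interaction, and 0 of 10 members were called by edgeR and 0 by DESeq2, where edgeR called 0.794% of 21163 genes. No member had an unadjusted p under 0.05. As log2 values the difference was 0.06 for BTS (95% interval -0.66 to 0.78) and 0.53 for BHLH38 (-1.85 to 2.92), which does not show that the effects were alike.

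In hda6 a ferritin gene rose at 12 h and regulator genes rose at 16 h. At 12 h 1 of 10 members was called, where 42% of 20649 genes were called and 22.4% were called higher: FER1 rose (log2 2.02 ± 0.56, edgeR adjusted p = 0.0183). FER1 had 65.6, 53.7 and 32.9 CPM in wild type 12 h and 342, 225 and 51.1 CPM in hda6. Replicates 1 and 2 of hda6 were far above the wild type and replicate 3 lay within its range. All 10 members overlapped between these groups, whereas 54% of all genes tested did not.

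Replicate 3 of hda6 at 12 h stood apart in all members. BHLH39 had 5.4, 3.65 and 16.7 CPM, BTS 185, 179 and 392 CPM, and OPT3 221, 229 and 428 CPM. FER4 had 31, 21.6 and 11.5 CPM, so that replicate 3 was the lowest for both ferritins and the highest for the other members. Without this library 5 of 10 members were called by edgeR: BHLH100 (log2 -1.72), BTS (-0.89) and OPT3 (-0.74) as lower, and FER1 and FER4 (0.56) as higher. The call of FER1 was lost without hda6 replicate 1 (edgeR adjusted p = 0.0578) or wild type 12 h replicate 3 (0.0713).

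SAG12 had 74, 54.7 and 11.7 CPM in the same hda6 libraries and at most 0.577 CPM in wild type 12 h, and the sum of 3 senescence markers was 68.5 to 158 CPM against 26.5 to 32.2 CPM. All 3 were called higher, and 2 of 7 mesophyll markers lower. Among 6 flower markers PI (log2 2.08) and SEP1 (log2 2.31) were called higher, and 2 were not tested. NST1 was called higher (log2 1.87) among 5 stem secondary wall markers, and SEOR1 lower (log2 -0.80) among 5 phloem markers. Their part in the result was not tested. Of the other iron genes 13 of 49 tested rose and 4 fell, 34.7% in all, beside 42% of all genes. ABCG37 rose by 3.24 and MYB10 by 0.72 on the log2 scale among 4 of 7 root uptake genes that rose, with 26% of the exonic bases of MYB10 overlapped on the other strand. YSL1 (log2 1.00) and YSL3 (log2 0.66) were among 6 of 17 transport genes that rose, while 2 fell.

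Of 6 upstream bHLH genes 2 rose at 12 h, bHLH104 (log2 0.34) and bHLH121 (log2 0.30), which encode activators of the Ib bHLH genes, and 1 fell. AT2G30766, with 20.5% of its exonic bases overlapped on the other strand, fell by 0.96 on the log2 scale, 1 of 5 in its list. In iron-sulfur assembly NFU2, which passes on iron-sulfur clusters in plastids, rose by 0.26 on the log2 scale, 1 of 10.

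At 16 h 4 of 10 members rose in hda6, where 8.02% of 20495 genes were called and 4.49% were called higher. BHLH39 had 3.07, 1.36 and 2.07 CPM in its wild type and 7.75, 6.01 and 5.36 CPM in hda6 (log2 1.55 ± 0.27, edgeR adjusted p = 0.0012). BHLH100 had 4.41, 1.68 and 2.19 CPM against 10.5, 6.15 and 6.8 CPM (log2 1.49 ± 0.30, edgeR adjusted p = 0.00413). Neither gene overlapped between the groups. BHLH38 had 6.28, 4.45 and 6.46 CPM against 13.6, 11.9 and 8.23 CPM (log2 0.99 ± 0.19, edgeR adjusted p = 0.00345).

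BTS differed little in size, with 144, 139.5 and 119.9 CPM against 177, 172 and 157 CPM (log2 0.33 ± 0.09, edgeR adjusted p = 0.0384). The groups stayed apart nonetheless, as they did for 5 of 10 members and 26.9% of all genes tested. Its call was lost without any of the hda6 libraries (edgeR adjusted p = 0.185, 0.093 and 0.0603 without replicates 1, 2 and 3) and without wild type replicate 3 (0.111). FER1 had 67.8, 79 and 92.4 CPM against 39.7, 60.3 and 71.3 CPM and did not pass the test (log2 -0.47 ± 0.16, edgeR adjusted p = 0.0764). It was called lower without hda6 replicate 3 (0.0304) or wild type replicate 1 (0.0299). The same call was made with no filter on low counts (edgeR adjusted p = 0.00574) and with a replicate block (edgeR adjusted p = 0.00033). In a model over all 30 libraries edgeR called 0 of 10 members here. Among the cell type markers, 1 of 7 mesophyll markers was called higher and 1 of 5 phloem markers lower. Their part in the result was not tested.

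Of the other iron genes 3 of 51 tested were called in hda6 at 16 h, 5.88%, beside 8.02% of all genes: 2 rose, ABCG37 (log2 1.15) and ZIF1 (log2 0.31), a vacuolar nicotianamine transporter gene, and NRAMP4, which encodes a vacuolar metal exporter, fell by 0.48 on the log2 scale.

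The difference between the hda6 effects was tested as an interaction. FER1 was called, 1 of 10 members, where 25.8% of 21913 genes were called and 12.9% in this direction: its hda6 effect was lower at 16 h than at 12 h by 2.49 on the log2 scale, or -2.49 ± 0.68 (edgeR adjusted p = 0.0176). The call was lost without hda6 16 h replicate 1 (edgeR adjusted p = 0.0517). Without hda6 12 h replicate 3 edgeR called 7 members, with interactions of 3.22 for BHLH100, 2.58 for BHLH39, 1.88 for BHLH38, 1.23 for BTS and 0.98 for OPT3, and -0.95 for FER4. Without wild type 12 h replicate 1 it called 3. In the same test all 3 senescence markers were called lower, with NYE1 at -1.08 and ORE1 at -2.02 on the log2 scale. Called higher were 3 of 7 mesophyll markers and 1 of 5 phloem markers. Their part in the result was not tested.

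**Figure D3:**
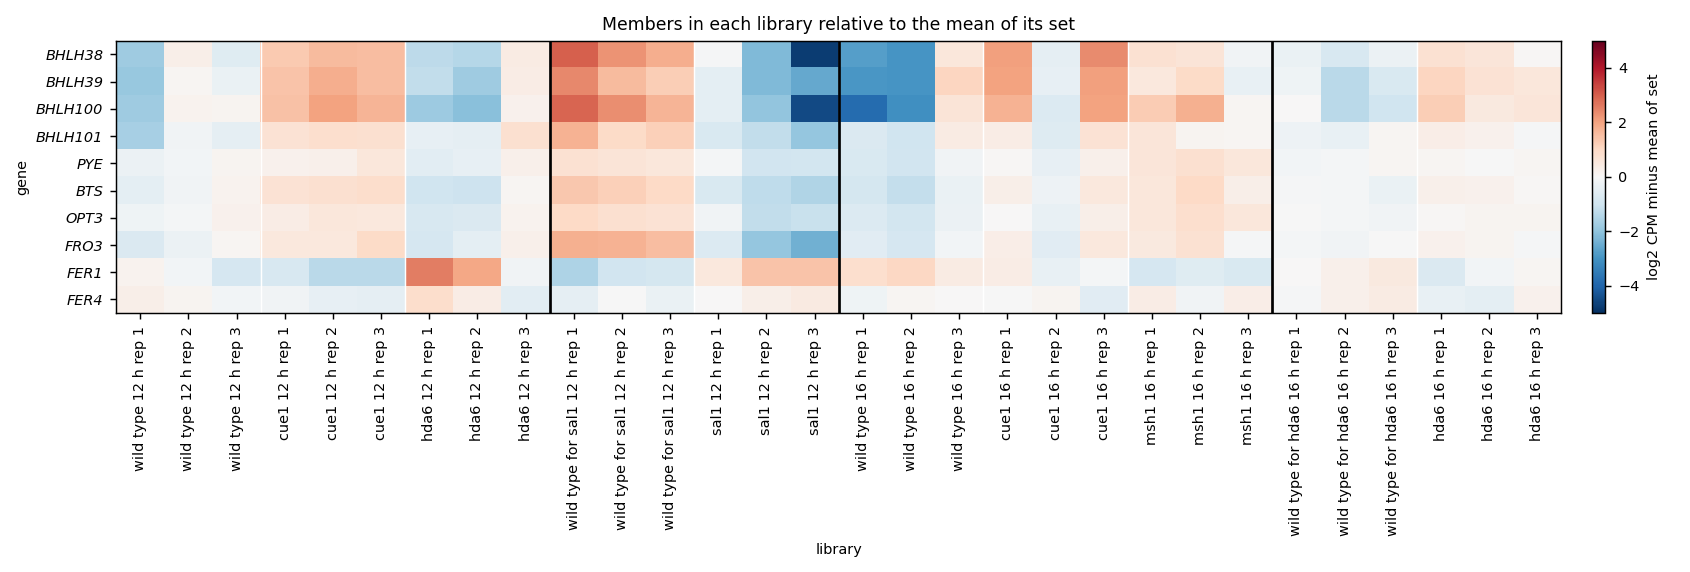
Log2 CPM of each member (rows) in each library (columns) minus the mean of its set, red above and blue below. Black lines part the sets. In hda6 at 12 h replicate 3 differs in colour from replicates 1 and 2, as does replicate 3 of wild type 16 h in the Ib bHLH rows, and FER1 is mostly of the colour opposite to BTS.

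The wild types differed by day length in most members. At 16 h BHLH38, BHLH100, PYE, BTS, OPT3 and FRO3 were lower and FER1 and FER4 higher than at 12 h in all 4 pairs of a 16 h and a 12 h wild type, 8 of 10 members by edgeR. Such a call in every pair was made for 9.52% of the 21044 genes tested (4.71% lower and 4.81% higher). In the single pairs 34.6%, 32.3%, 52.6% and 45.3% of genes were called. PYE, BTS, OPT3 and FRO3 were lower and FER1 higher in each of 6 libraries at 16 h than in any of 6 at 12 h, 5 of 10 members, against 14.4% of all genes.

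BTS ran from 265 through a median of 459 to 633 CPM at 12 h and from 107 through 136 to 189.9 CPM at 16 h, with log2 fold changes between -1.23 and -2.07 in the 4 pairs. OPT3 ran from 325 through 454 to 560.4 CPM at 12 h and from 153 through 189.6 to 239 CPM at 16 h. FRO3 ran from 75.3 through 128 to 147 CPM and from 33.3 through 49.9 to 54.8 CPM. The highest 16 h library of each lay below the lowest 12 h library. PYE ran from 14 through 20.5 to 24.8 CPM at 12 h and from 6.67 through 8.92 to 11.6 CPM at 16 h.

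FER1 ran from 26.2 through 40.8 to 65.6 CPM at 12 h and from 67.8 through 100.3 to 167 CPM at 16 h, with log2 fold changes between 0.66 and 1.95. FER4 moved less, with medians of 16.7 and 25.7 CPM and log2 fold changes between 0.41 and 0.79. BHLH100 had a median of 23.1 CPM at 12 h and 1.94 CPM at 16 h, but its ranges met, with a lowest 12 h value of 5.08 CPM and a highest 16 h value of 6.77 CPM. BHLH39 was called lower in 3 of 4 pairs, with edgeR adjusted p = 0.0829 in wild type 16 h against wild type 12 h. BHLH101 was lower in 1 pair (log2 -2.30) and higher in another (log2 1.19).

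Wild types of the same day length also differed. At 12 h the wild type for sal1 had more BHLH101 (log2 1.80), PYE (0.52), BTS (0.75) and OPT3 (0.45) than the other, 4 of 10 members where 37.4% of 21044 genes were called. At 16 h the wild type for hda6 had more BHLH101 (log2 1.69) and less FER1 (log2 -0.81) than the other, where 20.3% were called. These differences between sets were in part as large as those between day lengths. For FER1 the -0.81 at 16 h exceeded in size the smallest of its 4 differences between day lengths (0.66), and for BHLH101 both differences between sets exceeded 3 of the 4. For BTS the 0.75 at 12 h was below the smallest of its 4 differences, 1.23 in size. The mesophyll sum was 12907 to 28999 CPM in the wild types of 12 h and 35549 to 55915 CPM in those of 16 h. In the 4 pairs 2 to 3 of 5 phloem markers were called higher at 16 h and 0 lower. Of 5 stem secondary wall markers 0 to 3 were called higher and 0 to 1 lower. The part of these markers in the result was not tested.

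The count of 8 fell to 4 without wild type 12 h replicate 2 or replicate 3 and without wild type for hda6 replicate 2 or replicate 3, and then held 0 ferritins. In the model over all 30 libraries it was 5, all lower.

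**Figure D4:**
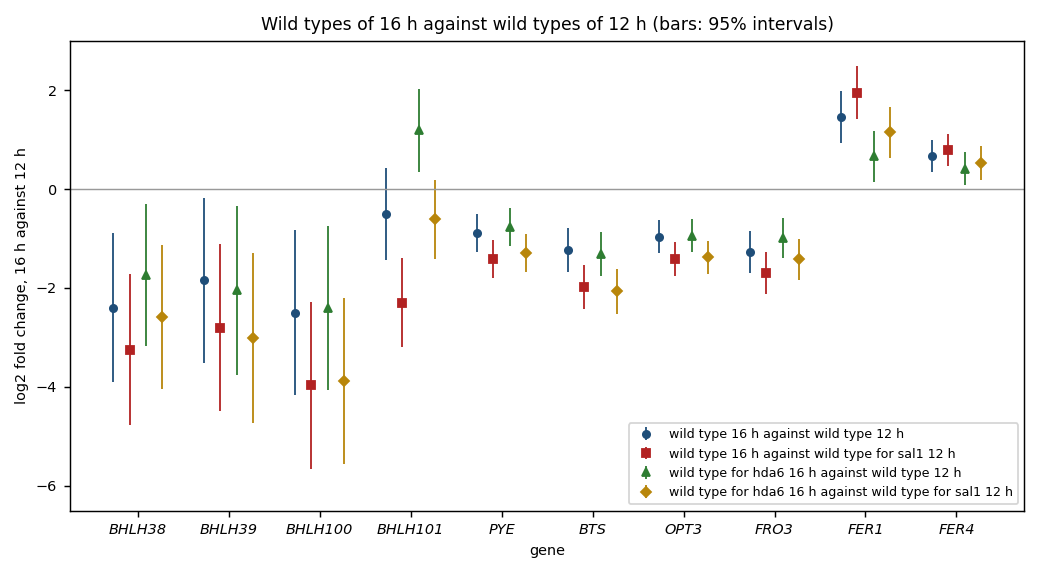
Log2 fold change of each member for each pair of a 16 h and a 12 h wild type, 3 libraries against 3, with 95% intervals. PYE, BTS, OPT3 and FRO3 lie below 0 and FER1 and FER4 above 0 in all 4 pairs, while BHLH101 lies on both sides.

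Replicates within a group tended to be ordered alike across members. In 10 groups, the library with the most BTS also had the most PYE in 9, FRO3 in 9, BHLH39, BHLH100 and OPT3 in 8 each, and BHLH38 and BHLH101 in 6 each. It had the least FER4 in 8 and the least FER1 in 7 groups. With each library centred on its set, FER1 had a Pearson r of -0.86 over the 30 libraries with the mean of PYE, BTS, OPT3 and FRO3, and FER4 -0.58. These libraries share genotypes and sets, so the values are a description. The order within groups was not counted over all genes, so it is not shown to be particular to these members.

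Genes most like each role group were sought in the same centred values among the 19753 nuclear genes whose mean reached 1 CPM. The 5 most like the Ib bHLH genes were AT2G14247 (r = 0.96), AT1G13609 (0.952), ORG1 (0.931), AT2G30766 (0.924) and ZIF1 (0.923). Those most like PYE, BTS, OPT3 and FRO3 were AT5G05250 (r = 0.979), ORG1 (0.96), AT2G39870 (0.95), NAS4 (0.941) and ZIF1 (0.941), so that ORG1 and ZIF1 were among both. Those most like the ferritins were RAP2.12, a gene of the low-oxygen response (r = 0.91), YSL1 (0.883), AT3G49160 (0.877), AT5G49280 (0.862) and ABCI8 (0.861). The ferritin values were less alike to their nearest genes than those of the other role groups.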

How the data were processed

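The deposited counts are raw reads per gene, 1 file per library. Per the submitters' processing notes, the authors used Trim Galore 0.6.6, cutadapt 2.8 and STAR 2.7.10a with TAIR10; no source used here names the counting tool, its strand setting or the library kit. The labels' extraction text names a DNA kit although the molecule is total RNA.

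The 5 rows that name no gene were left out. Each set was fitted by itself with edgeR 4.0.16 in R 4.3.3 (filterByExpr with a minimum count of 10, TMM factors, quasi-likelihood F test), with Benjamini-Hochberg adjustment over all genes tested and calls at an adjusted p under 0.05. The wild types shared 1 model, and each interaction used 4 groups. SE is the absolute log2 fold change over the square root of F. Levels are CPM with TMM factors over all 30 libraries, so that ratios of levels can differ slightly from fitted fold changes.

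All 10 members are named. Other iron genes come from 6 lists of 58 genes: from each list in each mutant comparison, the 2 called genes with the smallest adjusted p. Members and lists were chosen with earlier results of these data known. Scripts were tested on simulated data. No replicates were duplicates, since every pair differed by at least 4.45 times the sampling noise. Alternatives were DESeq2 1.42.0, DESeq2 size factors, no filter, all libraries in 1 model, only the groups compared, a replicate block and leaving out each library. A result for 1 gene of the root marker list is not reported here.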

Additional observations from a re-analysis of the deposited data

Results flagged for a closer look

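The effect of hda6 on FER1, the main leaf ferritin gene, differed between day lengths by a test of the difference itself, with an interaction of -2.49 on the log2 scale (edgeR adjusted p = 0.0176). FER1 had 342, 225 and 51.1 CPM in hda6 against 65.6, 53.7 and 32.9 CPM in the wild type at 12 h, and 39.7, 60.3 and 71.3 CPM against 67.8, 79 and 92.4 CPM at 16 h. In the same test the 3 senescence markers SAG12, NYE1 (log2 -1.08) and ORE1 (log2 -2.02) were also called lower. Called higher were 3 of 7 mesophyll markers and 1 of 5 phloem markers, and the part of all these markers was not tested. FER1 was 1 of 10 members called, where 25.8% of 21913 genes were called and 12.9% in this direction. The call was lost without hda6 16 h replicate 1 (edgeR adjusted p = 0.0517). At 12 h the call of FER1 was lost without hda6 replicate 1 (edgeR adjusted p = 0.0578) or wild type replicate 3 (0.0713). Day length and set cannot be told apart here.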

How the results depend on the processing

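In the counts of members called, sal1 gave 9 to 10 under settings that kept all libraries, msh1 5, hda6 at 12 h 1, and the interactions 0 (cue1) and 1 (hda6). In cue1 at 12 h the count of 0 became 3 with DESeq2, 1 in a model of all 30 libraries and 1 with the replicate block. In cue1 at 16 h the count of 2 became 3 with DESeq2, 1 in the model of all libraries, 0 with only the groups compared and 1 with the block. In hda6 at 16 h the count of 4 became 0 in the model of all libraries and 7 with the block. There OPT3 was also called with DESeq2 (DESeq2 adjusted p = 0.0382) and FER1 with no filter on low counts (edgeR adjusted p = 0.00574). For the wild types the count of 8 became 5 in the model of all libraries. The cause was not tested. Same-numbered libraries did not deviate together: of 24 pairs 2 had a residual correlation over 0.1 (-0.356 to 0.137), so the numbers were not taken to pair samples.

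Leaving out 1 library at a time gave 0 to 0 members called in cue1 at 12 h, 0 to 7 in cue1 at 16 h, 0 to 5 in hda6 at 12 h, 3 to 5 in hda6 at 16 h, 4 to 9 in msh1, 9 to 10 in sal1, 0 to 0 and 0 to 7 in the cue1 and hda6 interactions, and 4 to 9 in the wild types. For single members in the mutant and interaction comparisons, no called value changed sign in any setting run. There, with 1 library left out, 22 calls were lost and 28 gained, and under the other settings 9 and 11. For the wild types only the counts were followed. Some values rest on few reads, such as BHLH39 in wild type 16 h, with 6 and 5 counts in replicates 1 and 2 beside 137 in replicate 3. The 3 libraries per group limit all tests.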
